A study of Mus musculus with 16 samples.

Results

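The difference between male and female mice in the effect of deleting Gdf15 from brown adipose tissue (BAT) is described here, gene by gene, as the male KO minus WT difference less the female KO minus WT difference. A positive value means that KO stood higher against WT in males than in females. Members are the autosomal genes whose KO effect had opposite signs in males and females, 4760 of 11838 tested autosomal genes, out of 49119 genes with a symbol. Of these, 9 had KO and WT values that did not overlap in either sex, and these are described in full. Opposite signs are what selected the members, so the directions themselves are a description. Bulk RNA sequencing covered 16 libraries, 4 each of WT and KO from males and from females. All mice were on the C57BL6/J background, 18 weeks old, carried both Gdf15 alleles floxed (Gdf15 fl/fl) and had eaten a diet with 60% of its energy from fat from 6 weeks of age. KO mice (GDF15 BKO) also carried the transgene Tg(Ucp1-cre)1Evdr, in which the Ucp1 promoter drives Cre in thermogenic adipocytes. WT mice lacked Cre, so the deletion and the Cre transgene cannot be told apart, and other cells of the fat pad keep Gdf15 in KO mice. Each library is a separate sample of its group in the labels. Values are TPM, a share of all transcripts corrected for transcript length, summed per gene, in the order of replicates 1 to 4, and every difference is on the scale of log2(TPM + 0.5). TPM hold no read numbers, so depth is unknown.

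BAT burns fuel to make heat through UCP1, and takes up glucose both to oxidise it and to make fatty acids, which it then burns or stores. Glycolysis turns glucose into pyruvate, the pyruvate dehydrogenase complex feeds it to the tricarboxylic acid (TCA) cycle, and ATP citrate lyase, acetyl-CoA carboxylase and fatty acid synthase turn the exported citrate into fatty acids. GDF15 is a secreted member of the TGF-beta family made under cellular stress. The comparison asks whether its loss from BAT acts alike in both sexes under high-fat feeding.

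Gdf15 itself was at 0.368, 0.6899, 1.55 and 3.81 TPM in male WT, 0.0915, 0.0801, 0.255 and 0.272 in male KO, 0.0622, 0.311, 0.1703 and 0.2897 in female WT and 0, 0, 0.0794 and 0 in female KO. All male KO values lay below all male WT values, a difference of -1.38 (p = 0.0286 in an exact permutation test, two-sided, the lowest value possible with 4 against 4). In females the difference was -0.43 (exact permutation test, p = 0.0571), on levels that were already low in WT, and 3 KO libraries listed it at 0. At these levels the pseudocount sets the size: the differences were -2.26 in males and -1.32 in females with a pseudocount of 0.1, and -0.98 and -0.24 with 1. Ucp1 was abundant in every library (2353 to 4423 TPM), as was Cidea (989.8 to 1915 TPM), both markers of brown adipocytes, and the general adipocyte gene Adipoq was at 386 to 767 TPM. Xist, Ddx3y and Uty matched the labelled sex in 16 of 16 libraries. One female WT library, replicate 4, stood apart: 17.7% of its TPM came from transcripts that could not be matched to a gene, against at most 0.47% elsewhere, which lowers all its other TPM. The mean log2 level of 27 skeletal muscle genes ranged from 0.19 to 6.92 and overlapped widely between the groups. In bulk tissue, fewer cells of a type and less RNA per cell cannot be told apart.

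No gene passed the test of the difference between the sexes. In limma's fit of 12212 genes, 0 genes (0%) had an adjusted p under 0.05 for the interaction, and the smallest adjusted p was 0.216. At an unadjusted p under 0.05, the difference was positive in 1429 genes (11.7%) and negative in 306 (2.51%), so the values that follow are differences in level and not calls. The count of 0 depends on the fit: weighting libraries by their estimated quality gave 1821 genes, and 0 again when the most heavily weighted library, female WT 3, was left out or the scale was changed to median-of-ratios. Leaving out male KO 1 gave 3 genes (Hk1, Lrrc25 and Vmn2r-ps54), and leaving out female WT 4 gave 1 (Mir3058). Signs were opposite in 40.3% of all tested genes. Among autosomal genes, 3377 were higher in male KO and lower in female KO, and 1383 were the other way round. The scale bears on this split: the median KO effect over all genes was 0.16 in males and 0.10 in females, and -0.003 for the interaction once libraries were rescaled by median-of-ratios factors, against 0.06 before. After that rescaling 2855 autosomal genes were higher in male KO and lower in female KO and 2930 the reverse, and 3361 genes had opposite signs on both scales. Across autosomal genes the male and female effects had a Pearson correlation of 0.0038 over 11838 genes, which share libraries and scaling.

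**Figure D1:**
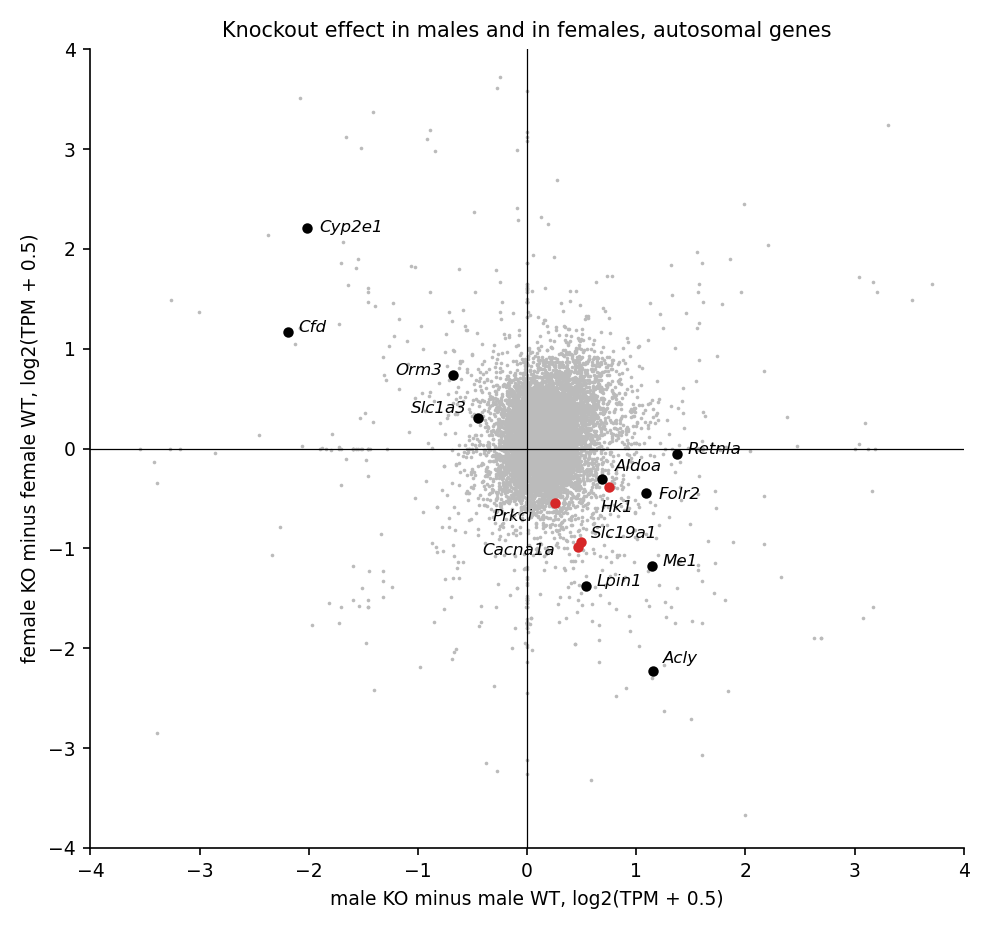
Each grey point is an autosomal gene, with its male KO minus WT difference on the horizontal axis and its female difference on the vertical axis, both in log2(TPM + 0.5). The 11827 genes inside the axes are drawn and 11 lie outside. Red marks named genes whose KO and WT libraries do not overlap in either sex, black marks other named genes, and Me1, Acly and Lpin1 lie at the lower right while Cfd and Cyp2e1 lie at the upper left.

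Of the 9 genes (0.0737% of tested genes) with no overlap in either sex and opposite directions, 8 (0.0655%) were higher in male KO and lower in female KO, and 1 (0.00819%) was lower in male KO and higher in female KO. By comparison, 106 of the 11838 tested autosomal genes had no overlap in either sex in the same direction, 89 of them up and 17 down. Counted in 1 sex alone, KO and WT did not overlap in 1123 autosomal genes up and 82 down in males. In females the counts were 570 up and 376 down. Whether the 9 opposed genes differ from what these single-sex counts give by themselves was not tested. The 8 genes are Hk1, Prkci, Cacna1a, Med16, Slc19a1 and Sp3, which encode proteins, the long non-coding RNA Gm20337 and the small nucleolar RNA gene Gm26397. The 1 gene in the other direction is Gm11837, annotated as antisense RNA. Hk1, Med16 and Slc19a1 lie on chromosome 10, Cacna1a and Gm26397 on chromosome 8, Prkci on chromosome 3, Sp3 on chromosome 2, Gm20337 on chromosome 12 and Gm11837 on chromosome 4.

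The count depends on the scale and on single libraries. On the median-of-ratios scale, 4 genes were opposed in the first direction and 7 in the second, and 3 of the 9 (Hk1, Slc19a1 and Gm20337) were among them. Leaving out 1 library gave 8 to 70 genes in the first direction (70 without male KO 1, 47 without female KO 2, 37 without male WT 4, 29 without female WT 4, 23 without female WT 2 or female KO 3, 18 without female WT 1, 14 without male WT 3 and 13 without male KO 4) and 1 to 6 in the second (6 without female KO 3, and 2 or 3 without male WT 1, 2 or 3, female WT 1 or 3, or female KO 2). All 9 stayed opposed whichever library was left out, which the rule makes certain. With the unmatched transcripts removed and the rest rescaled, 20 and 1 genes were opposed. Med16 and Sp3 cleared the rule by the smallest gaps, 0.0073 and 0.020 between the nearest KO and WT values, and Slc5a3 and Orm3 missed it by 0.003 and 0.0067.

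Reference promoters are shown for 6 genes so that members of both directions can be read side by side. Each runs from 250 bases before to 50 bases after a transcription start in the RefSeq table of build GRCm38.p6, 5′ to 3′ on the gene's strand. Capitals mark the GC box GGGCGG (a site for SP-family factors such as SP3) or the TATA box TATAAA on either strand. These motifs occur in 35.7% and 13.6% of the 32851 promoters of the table. Where a gene has 2 starts the first is printed, and Cacna1a is named only.
Hk1, chr10:62379859-62380158, minus strand: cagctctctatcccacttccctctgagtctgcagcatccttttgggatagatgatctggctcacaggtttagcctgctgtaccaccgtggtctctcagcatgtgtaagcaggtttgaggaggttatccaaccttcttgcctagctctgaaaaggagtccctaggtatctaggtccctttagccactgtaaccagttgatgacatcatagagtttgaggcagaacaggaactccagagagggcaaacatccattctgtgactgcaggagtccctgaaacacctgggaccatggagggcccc
Prkci, chr3:30995521-30995820, plus strand: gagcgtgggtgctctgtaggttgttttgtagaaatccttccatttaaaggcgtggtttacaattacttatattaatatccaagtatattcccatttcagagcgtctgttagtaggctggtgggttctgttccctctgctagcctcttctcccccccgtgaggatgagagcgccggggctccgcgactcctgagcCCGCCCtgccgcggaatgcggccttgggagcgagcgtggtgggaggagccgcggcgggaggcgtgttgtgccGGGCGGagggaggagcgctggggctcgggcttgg
Slc19a1, chr10:77032489-77032788, plus strand: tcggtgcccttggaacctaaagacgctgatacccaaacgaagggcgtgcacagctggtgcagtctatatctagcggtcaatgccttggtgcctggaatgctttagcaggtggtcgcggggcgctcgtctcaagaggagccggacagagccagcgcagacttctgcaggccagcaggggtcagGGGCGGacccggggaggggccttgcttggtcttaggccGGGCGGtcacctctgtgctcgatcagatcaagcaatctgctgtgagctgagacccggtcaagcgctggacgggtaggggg
Me1, chr9:86695865-86696164, minus strand: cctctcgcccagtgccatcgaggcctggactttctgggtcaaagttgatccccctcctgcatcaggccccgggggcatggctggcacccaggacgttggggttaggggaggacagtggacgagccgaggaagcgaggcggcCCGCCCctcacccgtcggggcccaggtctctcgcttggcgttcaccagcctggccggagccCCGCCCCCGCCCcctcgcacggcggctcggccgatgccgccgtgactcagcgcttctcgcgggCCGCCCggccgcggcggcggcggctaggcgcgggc
Cfd, chr10:79890603-79890902, plus strand: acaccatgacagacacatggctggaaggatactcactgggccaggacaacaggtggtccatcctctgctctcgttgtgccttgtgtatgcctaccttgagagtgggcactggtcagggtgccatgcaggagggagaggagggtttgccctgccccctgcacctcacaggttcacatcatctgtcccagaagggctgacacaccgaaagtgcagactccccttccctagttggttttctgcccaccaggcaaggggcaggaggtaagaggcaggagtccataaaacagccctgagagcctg
Cyp2e1, chr7:140763569-140763868, plus strand: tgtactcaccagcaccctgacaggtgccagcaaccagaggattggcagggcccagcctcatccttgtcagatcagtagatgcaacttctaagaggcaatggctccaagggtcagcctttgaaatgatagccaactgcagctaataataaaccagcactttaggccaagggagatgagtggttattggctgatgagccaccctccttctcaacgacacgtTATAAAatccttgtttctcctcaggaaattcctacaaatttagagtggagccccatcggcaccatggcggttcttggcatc

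The printed window of Me1 holds 4 GC boxes, those of Prkci and Slc19a1 hold 2 each, and those of Hk1, Cfd and Cyp2e1 hold 0. The second starts of Me1, Slc19a1 and Hk1, not printed, hold 0 GC boxes. Sp3 has 2 starts, with 2 and 5 GC boxes. The letters TATAAA stand on the gene's strand in the window of Cyp2e1. In the window of Med16, not printed, they stand on the opposite strand, close to the 5′ end of the window. The E-box CACGTG, found in 7.15% of all promoters, and the palindromic oestrogen response element, found in 0.0213%, had 0 matches in any window of Hk1, Prkci, Med16, Slc19a1, Sp3, Me1, Lpin1, Aldoa, Cfd or Cyp2e1. No match says only that these letters are not in these windows.

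Hk1 encodes hexokinase 1, which traps glucose in the cell as glucose 6-phosphate. Hk1 was at 10.1, 10.5, 12.5 and 14.3 TPM in male WT, 15.9, 20.97, 21.1 and 23.3 in male KO, 13.2, 14.1, 13.8 and 14.6 in female WT and 12.2, 11.9, 9.37 and 9.02 in female KO. Every male KO library was above every male WT library, and every female KO library was below every female WT library. The KO effects were 0.75 in males, -0.38 in females and 1.14 ± 0.20 (SE) for their difference (limma, adjusted p = 0.216 for the difference). Hk1 rose in male KO (limma, adjusted p = 0.0386). In females the adjusted p was 0.138. The male call was lost when any of 8 libraries was left out (male WT 1, 2 and 3, male KO 2, 3 and 4, and female WT 2 and 4), with an adjusted p of up to 0.166, and on the median-of-ratios scale (limma, adjusted p = 0.0818). Over the alternatives the interaction of Hk1 ranged from 0.995 to 1.25, and among fits without array weights it passed the threshold only when male KO 1 was left out (limma, adjusted p = 0.0414).

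Prkci encodes an atypical protein kinase C of cell polarity and insulin signalling. Prkci was at 5.71, 5.34, 6.02 and 5.89 TPM in male WT, 6.505, 7.16, 6.91 and 7.17 in male KO, 6.798, 6.53, 6.899 and 5.82 in female WT and 3.75, 5.54, 4.56 and 3.61 in female KO. The highest female KO library, replicate 2, lay just under the lowest female WT library, replicate 4, and the other female KO libraries were well below, with effects of 0.25 in males, -0.54 in females and 0.80 ± 0.16 (SE) for their difference. Slc19a1, the reduced folate carrier, was at 14.8, 15.6, 18.4 and 18.3 TPM in male WT, 21.03, 27.99, 25.1 and 21.3 in male KO, 17.3, 18.2, 19.8 and 21.2 in female WT and 7.76, 15.9, 14.2 and 5.03 in female KO. Cacna1a, a voltage-gated calcium channel subunit, was at 12.8, 10.96, 15.9 and 14.99 TPM in male WT, 20.1, 17.7, 20.5 and 17.6 in male KO, 17.1, 15.7, 20.5 and 17.8 in female WT and 6.77, 12.5, 14.03 and 4.71 in female KO. In both genes female KO 1 and 4 were the lowest of all libraries and the other female KO libraries lay closer to WT. Effects were 0.49 in males, -0.94 in females and 1.43 ± 0.36 (SE) for their difference for Slc19a1, and 0.47 in males, -0.98 in females and 1.46 ± 0.35 (SE) for their difference for Cacna1a.

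Med16 is a subunit of the Mediator complex that links transcription factors to RNA polymerase, and Sp3 is a transcription factor that binds GC boxes. Med16 was at 6.897, 8.33, 8.84 and 10.6 TPM in male WT, 10.7, 11.9, 11.7 and 10.9 in male KO, 7.54, 7.24, 8.22 and 8.85 in female WT and 6.07, 6.86, 6.902 and 6.28 in female KO. Sp3 was at 10.8, 9.44, 9.898 and 10.5 TPM in male WT, 11.6, 11.4, 13.1 and 10.99 in male KO, 8.89, 9.94, 9.84 and 7.85 in female WT and 7.62, 7.42, 7.14 and 7.51 in female KO. In KO every male library was above every female library for both genes, while the sexes overlapped in WT. Effects were 0.38 in males, -0.27 in females and 0.64 ± 0.16 (SE) for their difference for Med16, and 0.20 in males, -0.28 in females and 0.47 ± 0.13 (SE) for their difference for Sp3. Scale matters for Sp3: its male effect was 0.03 on the median-of-ratios scale and -0.01 with array weights added to that scale.

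The non-coding members had low levels. Gm20337 was at 1.18, 1.65, 1.47 and 1.44 TPM in male WT, 1.99, 2.24, 1.82 and 2.198 in male KO, 2.46, 1.98, 1.77 and 1.89 in female WT and 0.864, 1.495, 1.54 and 0.609 in female KO. Gm26397 was at 2.11, 2.42, 0.814 and 3.44 TPM in male WT, 7.78, 8.85, 3.45 and 3.69 in male KO, 4.68, 7.82, 5.34 and 20.1 in female WT and 2.55, 4.203, 0 and 0 in female KO, with 2 female KO libraries listed at 0. Gm11837 was at 3.14, 2.44, 3.11 and 2.56 TPM in male WT, 2.42, 1.88, 2.11 and 1.89 in male KO, 2.71, 2.83, 2.895 and 1.94 in female WT and 3.25, 3.98, 3.82 and 3.69 in female KO, lowest in male KO and highest in female KO. Interactions were 1.08, 3.88 and -0.81. The strand setting of the quantification is not given in the sources used here, so the antisense Gm11837 is uncertain as a gene of its own, as is the small nucleolar RNA Gm26397 in an mRNA library.

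**Figure D2:**
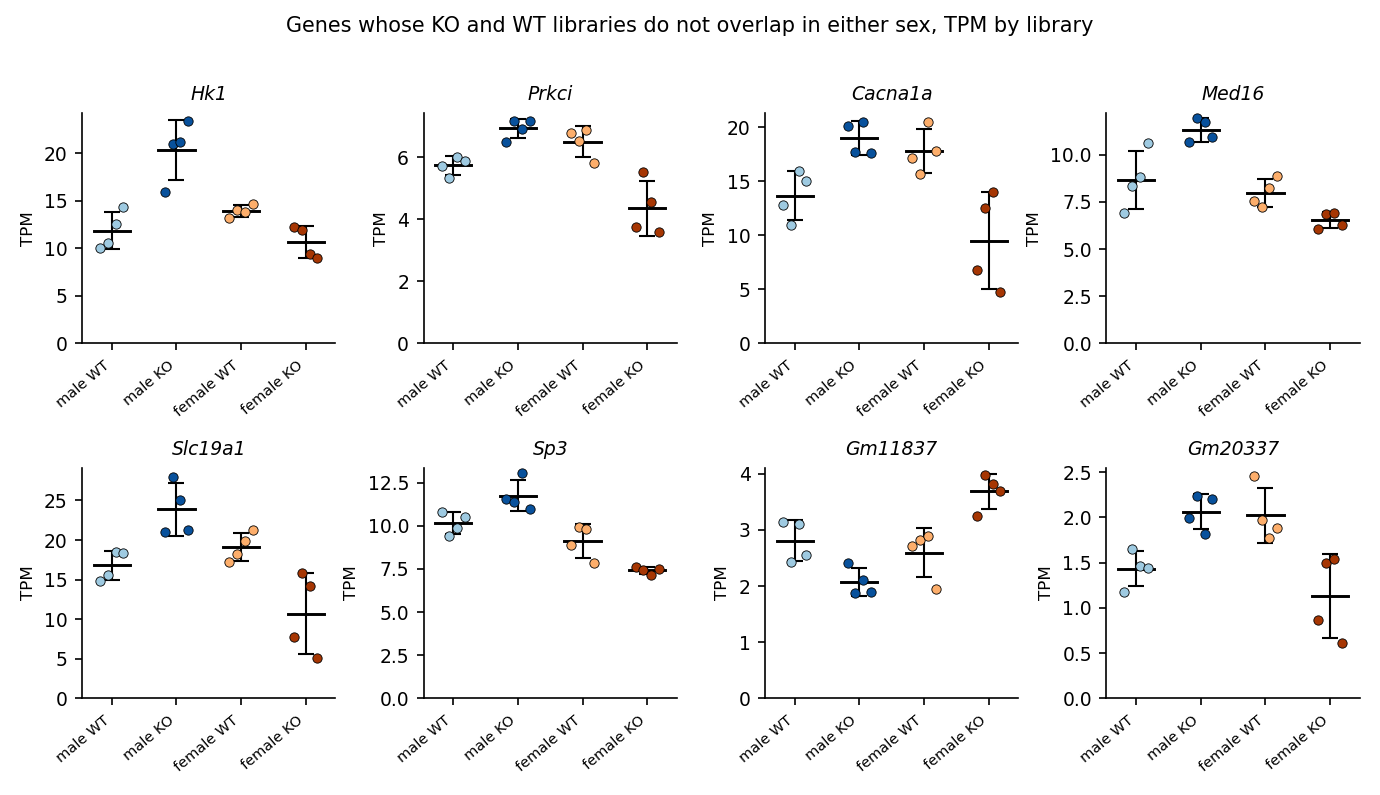
TPM of 8 of the 9 opposed genes in each of the 16 libraries, with the group mean and SD (n = 4). Hk1 lies between 15.9 and 23.3 in male KO against 10.1 to 14.3 in male WT, and between 9.02 and 12.2 in female KO against 13.2 to 14.6 in female WT, and Gm11837 shows the reverse order.

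Many genes of glucose use had the same signs as Hk1. Of 41 listed genes of glycolysis, glycogen and pyruvate oxidation, 40 were tested (37 autosomal). Of these 40, 26 were higher in male KO and lower in female KO, 4 were the reverse, 6 were higher and 4 lower in both sexes. Over all tested autosomal genes, the first 2 patterns made up 28.5% and 11.7%. The median KO effect was 0.37 in males and -0.27 in females, and the median interaction 0.65, against 0.16, 0.10 and 0.06 over all tested genes. The male median was 0.20 on the median-of-ratios scale, where that of all genes was 0.003, and 0.21 with a trend on transcript length and GC content removed. At an unadjusted p under 0.05, 24 of 40 members had a positive interaction and 2 a negative one, beside 11.7% and 2.51% of all genes. Of these, 21 and 1 were autosomal with opposite signs, beside 10.6% and 2% of all genes. None passed the adjusted threshold. The median was positive in all 32 alternatives, lay between 0.53 (without male WT 1) and 0.75 (without female KO 2) with a library left out, and was 0.58 on the median-of-ratios scale.

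The median male minus female difference over the 40 genes was -0.02 in WT and 0.64 in KO, beside 0.05 and 0.11 over all tested genes. Of the 40, 35 were higher in male than female KO, against 16 in WT. The mean log2 level of the list in single libraries was 6.37 to 6.79 in male WT, 6.7 to 7.05 in male KO, 6.59 to 6.81 in female WT and 6.17 to 6.57 in female KO. The females' groups did not overlap and the males' did, through male KO 1, the lowest male KO library.

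Aldoa, the aldolase that splits fructose 1,6-bisphosphate, was at 1477, 1762, 2015 and 2172 TPM in male WT, 2366, 3588, 3166 and 2851 in male KO, 2102, 1941, 1633 and 1797 in female WT and 1415, 1459, 1905 and 1292 in female KO. The male groups were apart and the female groups overlapped, with effects of 0.69 in males, -0.31 in females and 1.0 ± 0.23 (SE) for their difference. Pkm, the pyruvate kinase that ends glycolysis, was at 638, 752, 1017 and 981 TPM in male WT, 905, 1450.0, 1315 and 1278 in male KO, 889, 820.3, 829 and 792 in female WT and 475, 779, 689 and 358 in female KO, with an interaction of 1.15 ± 0.32. Here the female groups were apart, and the male groups overlapped through male KO 1. Slc2a4, the insulin-responsive glucose transporter, was at 122 ± 34.8 TPM in male WT (SD, n = 4), 166 ± 27.8 in male KO, 140.0 ± 10.6 in female WT and 105 ± 27.8 in female KO. Gpi1, which isomerises glucose 6-phosphate, was at 427 ± 84.8 TPM in male WT (SD, n = 4), 653 ± 155 in male KO, 424 ± 59.3 in female WT and 311 ± 44.1 in female KO. For both, male KO had the highest mean and female KO the lowest. Interactions were 0.92 for Slc2a4 and 1.05 for Gpi1. They were 0.79 for the phosphofructokinase Pfkl, 0.86 for Gapdh, 0.49 for the X-linked phosphoglycerate kinase Pgk1, 0.54 for the mutase Pgam1, 1.33 for the enolase Eno1 and 0.66 for lactate dehydrogenase A.

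The mitochondrial entry of pyruvate showed the same signs. Dlat, the acetyltransferase of pyruvate dehydrogenase, was at 262 ± 62.8 TPM in male WT (SD, n = 4), 368 ± 65 in male KO, 272 ± 24.3 in female WT and 176 ± 58.2 in female KO, with an interaction of 1.18. Interactions were 0.73 for the pyruvate carrier subunit Mpc1, 1.08 for the X-linked Pdha1, 0.94 for Pdhb, 0.69 for Pdhx and 0.65 for pyruvate carboxylase. Pdk1 and Pdp1, a kinase that turns the complex off and a phosphatase that turns it on, both had positive values (1.47 and 0.54). Glycogen genes were included: 0.42 for glycogen synthase, 1.17 for the branching enzyme, 1.59 for the targeting subunit Ppp1r3b and 1.81 for glycogen phosphorylase, so genes of synthesis and of breakdown had the same sign. Pdpr, a regulator of the pyruvate dehydrogenase phosphatase, differed from these. It fell in female KO (limma, adjusted p = 0.00194) with an effect of -1.60, and had an effect of -0.76 in males (limma, adjusted p = 0.0819). Ldhb and Pfkfb1 were the 2 members with a negative interaction at an unadjusted p under 0.05 (-0.88 and -0.58). Ldhb, the lactate dehydrogenase of oxidative tissue, was at 171 ± 69.1 TPM in male WT (SD, n = 4), 132 ± 11.1 in male KO, 158 ± 39.2 in female WT and 241 ± 84.5 in female KO.

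Lipogenic genes stood higher in male KO and lower in female KO in the median. All 22 listed genes of fatty acid and triglyceride synthesis were tested. Of these 22, 15 were higher in male KO and lower in female KO and 2 were the reverse, beside 28.5% and 11.7% of all tested autosomal genes. The other 5 were higher in both. Medians were 0.43 in males, -0.62 in females and 1.0 for the interaction. The male median was 0.26 on the median-of-ratios scale and 0.20 with a trend on transcript length and GC content removed. At an unadjusted p under 0.05, 12 of 22 had a positive interaction and 0 a negative one, beside 11.7% and 2.51% of all tested genes. All 12 were autosomal with opposite signs, and none passed the adjusted threshold. The median male minus female difference was -0.23 in WT and 0.86 in KO, beside 0.05 and 0.11 over all tested genes.

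Me1 encodes malic enzyme, a source of NADPH for fatty acid synthesis. Me1 was at 59.1, 51.8, 115 and 124 TPM in male WT, 78.2, 297, 196 and 232 in male KO, 126, 143, 77.2 and 124 in female WT and 35.2, 60.6, 73 and 41.5 in female KO. Every female KO library was below every female WT library, and 3 of 4 male KO libraries were above all male WT libraries. Effects were 1.15 in males, -1.18 in females and 2.32 ± 0.55 (SE) for their difference (limma, adjusted p = 0.216). Acly, the ATP citrate lyase that makes cytosolic acetyl-CoA, was at 121, 127, 566 and 391 TPM in male WT, 211, 922, 787 and 545 in male KO, 293, 555, 254 and 521 in female WT and 31.4, 187, 261 and 28.02 in female KO. Female KO 1 and 4 were the lowest of all 16 libraries. Effects were 1.15 in males, -2.23 in females and 3.38 ± 1.03 (SE) for their difference.

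Scd1, the desaturase that makes monounsaturated fatty acids, was at 1355, 886, 2197 and 4448 TPM in male WT, 2097, 5777, 5982 and 5995 in male KO, 2148, 2756, 1414 and 1361 in female WT and 572, 1070.0, 1627 and 497 in female KO. Male KO 1 was the single male KO library within the WT range. The interaction was 2.43 ± 0.70. Fasn, fatty acid synthase, was at 1113, 1181, 3809 and 2828 TPM in male WT, 2073, 6457, 5141 and 4229 in male KO, 3670.0, 3067, 1871 and 3880.0 in female WT and 614, 2116, 2847 and 328 in female KO, with an interaction of 2.61 ± 0.87. In both sexes its KO and WT groups overlapped. Acaca, acetyl-CoA carboxylase, had 149 ± 88.8 TPM in male WT (SD, n = 4), 226 ± 99.7 in male KO, 221 ± 60.02 in female WT and 71.4 ± 51.8 in female KO. Its interaction was 2.57. Lpin1, a phosphatidate phosphatase of triglyceride synthesis, was at 27.1, 23, 51.03 and 39.5 TPM in male WT, 28.3, 67.5, 60.9 and 49.6 in male KO, 25.7, 36.95, 37.7 and 50.02 in female WT and 11.3, 29.5, 7.55 and 13.9 in female KO, with effects of 0.54 in males, -1.38 in females and 1.93 ± 0.53 (SE) for their difference. The other 6 members past an unadjusted p of 0.05 were Scd2 (2.12), the citrate carrier Slc25a1 (1.79), the acetyl-CoA synthetase Acss2 (1.62), Pnpla3 (1.44), Thrsp (1.08) and Srebf1 (0.93), which encodes the transcription factor SREBP-1.

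The libraries within a group were uneven for this list. Its mean log2 level was 6.09, 6.22, 6.88 and 6.85 in male WT, 6.43, 7.4, 7.19 and 7.1 in male KO, 6.75, 6.80, 6.55 and 6.80 in female WT and 5.83, 6.51, 6.40 and 5.72 in female KO. The female groups did not overlap. Female KO 1 and 4 were the lowest 2 of the 16 libraries, and male KO 1 lay among the male WT libraries. The male levels differed by library prefix, the label that opens the library name. Male WT at 6.09 and 6.22 shared a prefix. Male WT at 6.88 and 6.85 shared another with male KO at 7.4, 7.19 and 7.1. Male KO 1 was the only male library with its prefix. Female KO 4, at 5.72, had the prefix of the higher male libraries. With prefix as a factor the median interaction was 1.16, but prefix and group are partly confounded. Leaving out 1 library gave a median interaction between 0.80 (without female KO 4) and 1.25 (without female KO 2), and removing the length and GC trend gave 0.98.

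**Figure D3:**
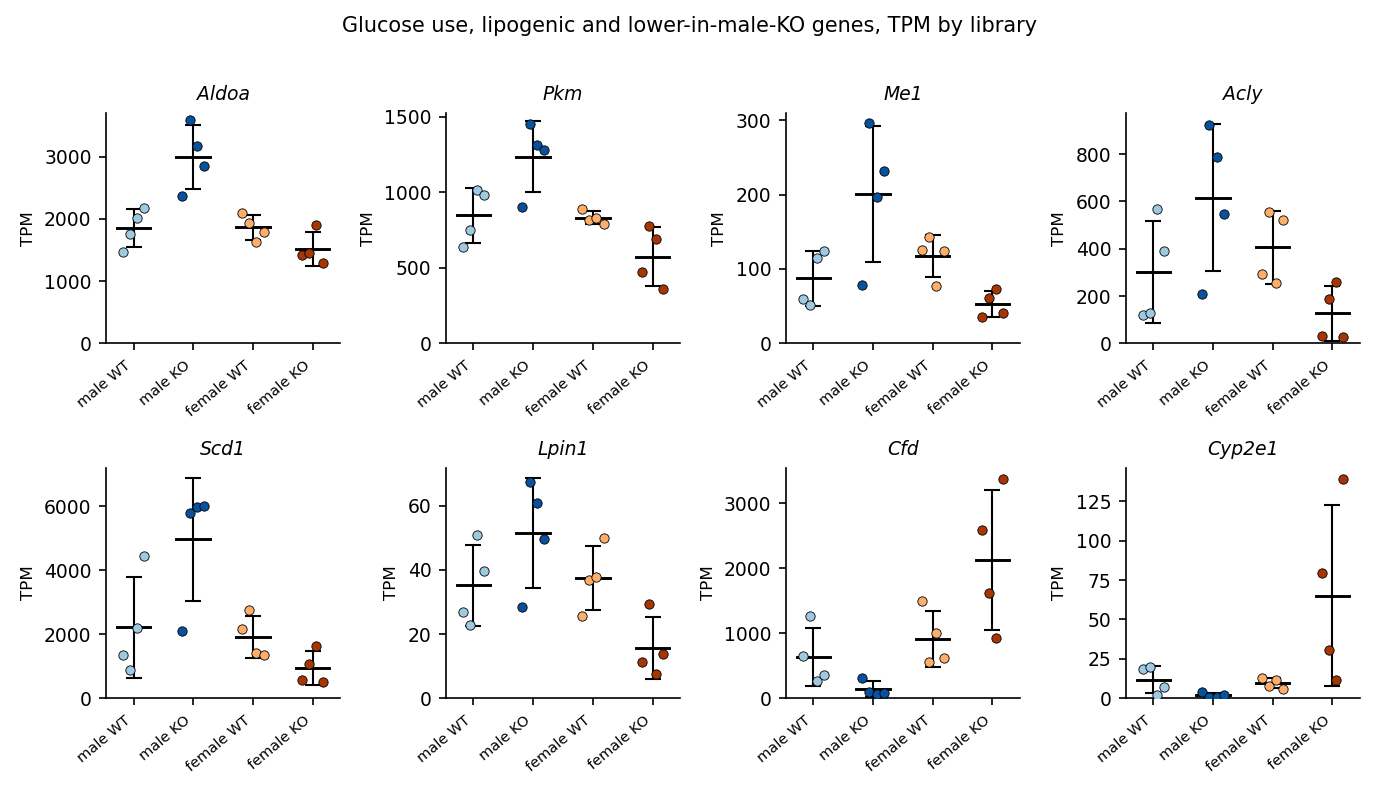
TPM by library for 2 genes of glucose use, 4 lipogenic genes and 2 genes of the opposite direction, with the group mean and SD (n = 4). Me1 lies between 35.2 and 73 in female KO against 77.2 to 143 in female WT, while Cfd is at 72.1 to 318 in male KO and 925 to 3378 in female KO.

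The TCA cycle and cholesterol synthesis had smaller gaps with the same signs. Of 18 TCA cycle genes, 15 were higher in male KO and lower in female KO, beside 28.5% of all tested autosomal genes. Medians were 0.15 in males, -0.24 in females and 0.38 for the interaction, and 8 of 18 had a positive interaction at an unadjusted p under 0.05, beside 11.7% of all tested genes. Ogdh, the oxoglutarate dehydrogenase, was at 729 ± 135 TPM in male WT (SD, n = 4), 914 ± 73.8 in male KO, 732 ± 42.3 in female WT and 526 ± 137 in female KO, and Cs, citrate synthase, at 784 ± 96.6 TPM in male WT (SD, n = 4), 944 ± 70.7 in male KO, 766 ± 86.2 in female WT and 599 ± 142 in female KO. Interactions were 0.85 and 0.65. On the median-of-ratios scale the male median of the list was -0.02, so its male direction depends on the scale, while the interaction median was 0.31. Of 23 cholesterol synthesis genes, 17 were higher in male KO and lower in female KO, beside the same 28.5%. Medians were 0.20 in males, -0.29 in females and 0.43 for the interaction. Of the 23, 10 had a positive interaction at an unadjusted p under 0.05, beside 11.7% of all tested genes. Their male median was 0.029 on the median-of-ratios scale and 0.034 with the length and GC trend removed. Mvd and Dhcr7, enzymes early and late in the pathway, had interactions of 0.63 and 0.92. For fatty acid oxidation, medians were 0.08 in males (-0.09 on the median-of-ratios scale), -0.09 in females and 0.16 for the interaction over 27 genes, and 3 had a positive and 1 a negative interaction at that threshold, shares near the 11.7% and 2.51% of all tested genes.

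On the TPM scale fewer genes stood lower in male KO and higher in female KO. At an unadjusted p under 0.05, 235 autosomal genes had opposite signs in this direction, against 1257 in the other. The size of the imbalance varied with the scale. Over all tested genes, 1429 had a positive and 306 a negative interaction at that threshold. After median-of-ratios rescaling, which moved the median interaction to -0.003, the counts were 1136 and 1130. They were 1621 and 549 without mitochondrial transcripts, and 1913 and 225 without unmatched transcripts. The reason for the imbalance was not tested. Cfd encodes adipsin, the complement factor D secreted by fat cells. Cfd was at 658, 1259, 273 and 354 TPM in male WT, 318, 99.3, 72.1 and 80.5 in male KO, 1493, 554, 1004 and 612 in female WT and 2583, 1616, 925 and 3378 in female KO. Effects were -2.19 in males, 1.17 in females and -3.36 ± 0.79 (SE) for their difference (limma, adjusted p = 0.216). In KO every female library was above every male library, and in WT the sexes overlapped. Cfd and Med16 are neighbours on chromosome 10 in the RefSeq annotation, on opposite strands, and had opposite signs.

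Cyp2e1, a cytochrome P450 that oxidises small molecules, was at 18.3, 19.7, 1.96 and 7.17 TPM in male WT, 3.88, 0.896, 1.02 and 2.34 in male KO, 12.97, 7.79, 11.7 and 6.13 in female WT and 79.6, 30.4, 11.5 and 139 in female KO. Its effects were -2.02 in males, 2.21 in females and -4.23 ± 1.03 (SE) for their difference. Female KO 1 and 4, the libraries lowest in lipogenic genes, were the highest here and in Cfd, and male KO 1 was the highest male KO library in both. Orm3, an orosomucoid secreted in the acute phase, was at 8.69, 11.3, 6.498 and 6.78 TPM in male WT, 4.27, 5.62, 4.54 and 5.28 in male KO, 7.57, 5.47, 7.61 and 5.46 in female WT and 17.6, 7.57, 8.69 and 12.9 in female KO, with effects of -0.67 in males, 0.74 in females and -1.41 ± 0.33 (SE) for their difference. Prodh, the proline dehydrogenase, and Slc1a3, a glutamate transporter, had means of 10.9 ± 1.804 TPM in male WT (SD, n = 4), 7.66 ± 1.56 in male KO, 12.1 ± 2.03 in female WT and 17.3 ± 3.82 in female KO, and of 12.96 ± 1.84 TPM in male WT (SD, n = 4), 9.27 ± 0.376 in male KO, 13.3 ± 1.84 in female WT and 16.8 ± 3.38 in female KO. Interactions were -0.98 for Prodh, -0.76 for Slc1a3, -1.48 for the amino acid transporter Slc43a1, -0.92 for the FOXO1 corepressor Fcor and -0.88 for the DNA crosslink repair gene Dclre1a. Further genes with the smallest p in the other direction were Adamtsl5 (1.26), Arhgap35 (0.96), Ccdc3 (1.28) and 2410131K14Rik (0.72).

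Macrophage, collagen and proliferation genes had larger median effects in males than in females, with no gene past the test of the difference. In males 38 genes (0.311%) passed the adjusted threshold, all of them higher in KO, and 37 were autosomal. In females 5 genes (0.0409%) passed. Of the 37 male calls, 6 had a negative effect in females: Hk1, Tk1, Retnla, Col14a1, Ccl6 and Gpnmb. That is a smaller share than the 28.5% of all tested autosomal genes that were higher in male KO and lower in female KO. None of the 5 female calls had the opposite sign in males. All 6 male calls were lost when 1 of several libraries was left out (male WT 1 or 3, or male KO 2, 3 or 4, for all 6), with adjusted p of up to 0.208. The female effects of Retnla, Col14a1 and Gpnmb were near 0 (-0.05, -0.05 and -0.01) and changed sign in some settings.

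Retnla, a product of alternatively activated macrophages, was at 3.12, 4.17, 3.87 and 5.77 TPM in male WT, 9.79, 10.2, 14.6 and 12.1 in male KO, 9.49, 19.4, 9.99 and 9.28 in female WT and 9.48, 11.1, 10.2 and 13.7 in female KO. Male WT was the group that stood apart, below the other 3 groups. Tk1, the thymidine kinase of dividing cells, was at 1.29, 1.995, 1.27 and 1.11 TPM in male WT, 3.12, 3.29, 3.09 and 4.31 in male KO, 1.65, 1.61, 2.26 and 2.82 in female WT and 1.73, 2.04, 1.56 and 1.51 in female KO. Folr2, a folate receptor of resident macrophages, was at 1.34, 0.834, 1.25 and 2.06 TPM in male WT, 2.82, 3.52, 3.19 and 4.11 in male KO, 1.58, 2.21, 2.98 and 1.43 in female WT and 1.37, 0.891, 1.18 and 2.01 in female KO. Male KO was highest in Tk1 and, in mean, in Folr2. Interactions were 1.42, 1.26 and 1.54, and 1.84 and 1.78 for Ccl6 and Gpnmb, a chemokine and a glycoprotein of lipid-laden macrophages.

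Over 25 macrophage markers the median effect was 0.90 in males and 0.11 in females, and 12 had a positive interaction at an unadjusted p under 0.05, beside 11.7% of all tested genes. The female median was 0.02 on the median-of-ratios scale, -0.035 without mitochondrial transcripts and -0.165 with array weights, and lay between 0.004 (without female WT 4) and 0.349 (without female WT 3) with a library left out, so it had no stable sign. Of the 25, 7 were higher in male KO and lower in female KO and 17 were higher in both, and the first share is near the 28.5% of all tested autosomal genes. The mean log2 level of the list was 1.47 to 2.2 in male WT, 2.5 to 3.03 in male KO, 1.7 to 2.55 in female WT and 2.0 to 2.45 in female KO. Its median interaction was 0.84, and 0.58 without female WT 3, the female WT library with the highest level. Over 18 collagen genes the medians were 0.81 in males, 0.18 in females and 0.72 for the interaction, and 5 had opposite signs, a smaller share than the 40.2% of all tested autosomal genes. With the length and GC trend removed, the male median was 0.55 and the interaction median 0.51. Median transcript length was 4942 bases for this list, against 2122 over all tested genes. Positive interactions at an unadjusted p under 0.05 numbered 9, and 3 with library prefix as a factor, where the interaction median was 0.54. The female median was 0.089 on the median-of-ratios scale and 0.034 without mitochondrial transcripts, and lay between 0.024 (without female KO 1) and 0.273 (without female KO 2) with a library left out. Col14a1, a fibril-associated collagen, was at 0.704 ± 0.287 TPM in male WT (SD, n = 4), 2.304 ± 0.3497 in male KO, 1.39 ± 0.4002 in female WT and 1.296 ± 0.229 in female KO, and Col18a1, a basement membrane collagen, at 4.83 ± 1.95 TPM in male WT (SD, n = 4), 9.26 ± 1.64 in male KO, 5.98 ± 2.08 in female WT and 4.47 ± 0.917 in female KO. Pcolce, an enhancer of procollagen processing, was at 49.3 ± 14.5 TPM in male WT (SD, n = 4), 84.98 ± 6.42 in male KO, 35.7 ± 5.49 in female WT and 29.1 ± 6.31 in female KO. Interactions were 1.29, 1.27 and 1.12. The female WT mean of Col18a1 was raised by replicate 4, at 9.09 TPM against 4.71 to 5.14 in the other female WT libraries. Its female effect was -0.35, and -0.47 to -0.15 with a library left out.

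Ribosomal and respiratory chain genes leaned the other way in the median interaction. Of 82 cytosolic ribosomal protein genes, 23 were lower in male KO and higher in female KO, beside 11.7% of all tested autosomal genes, and 59 were higher in both. Medians were 0.03 in males, 0.59 in females and -0.55 for the interaction (the male median was -0.14 on the median-of-ratios scale), and 13 had a negative interaction at an unadjusted p under 0.05, beside 2.51% of all tested genes. That count was 65 on the median-of-ratios scale, 47 with the length and GC trend removed, 1 with library prefix as a factor, and 1 (without male WT 2) to 51 (without female WT 1) with a library left out. The count over all tested genes moved too. It was 306 in the main fit, 1130, 1094 and 136 in these settings in the same order, and 143 to 675 with a library left out. Rps20 and Fau, both of the small subunit, had interactions of -0.89 and -0.92. Nuclear genes of complex I (36 tested) and of complexes III to V (38 tested) had interaction medians of -0.30 and -0.30. Their male medians were -0.02 and -0.01. In these lists 24 and 19 members were lower in male KO and higher in female KO, beside 11.7% of all tested autosomal genes. At an unadjusted p under 0.05, 1 and 0 members had a negative interaction and 2 and 1 a positive one, beside 2.51% and 11.7% of all tested genes. The negative counts were 18 and 16 on the median-of-ratios scale and 9 and 7 with the length and GC trend removed. They were 0 and 0 with library prefix as a factor. With a library left out they ranged from 0 and 0 (without male WT 2) to 12 and 10 (without female WT 1). The counts over all tested genes in these settings are those given above. Ndufs1, Ndufa10, Uqcrc2 and Atp5a1 of these lists had positive interactions (0.62, 0.46, 0.63 and 0.39).

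Transcript length differed between these sets. The median transcript length, weighted by TPM within each gene, was 580 bases for the ribosomal list, 664 for complex I and 594 for complexes III to V, against 2122 over all tested genes. It was 2961 in the 1257 opposite-sign genes higher in male KO and 1263 in the 235 lower in male KO, at an unadjusted p under 0.05. With a trend on length and GC content removed from each library, the interaction medians were -0.39, -0.11 and -0.15 for these 3 lists and 0.56 for glucose use, 0.98 for lipogenesis, 0.53 for cholesterol synthesis and 0.29 for the TCA cycle. The part of transcript length or RNA quality in the ribosomal and respiratory values was not tested further.

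**Figure D4:**
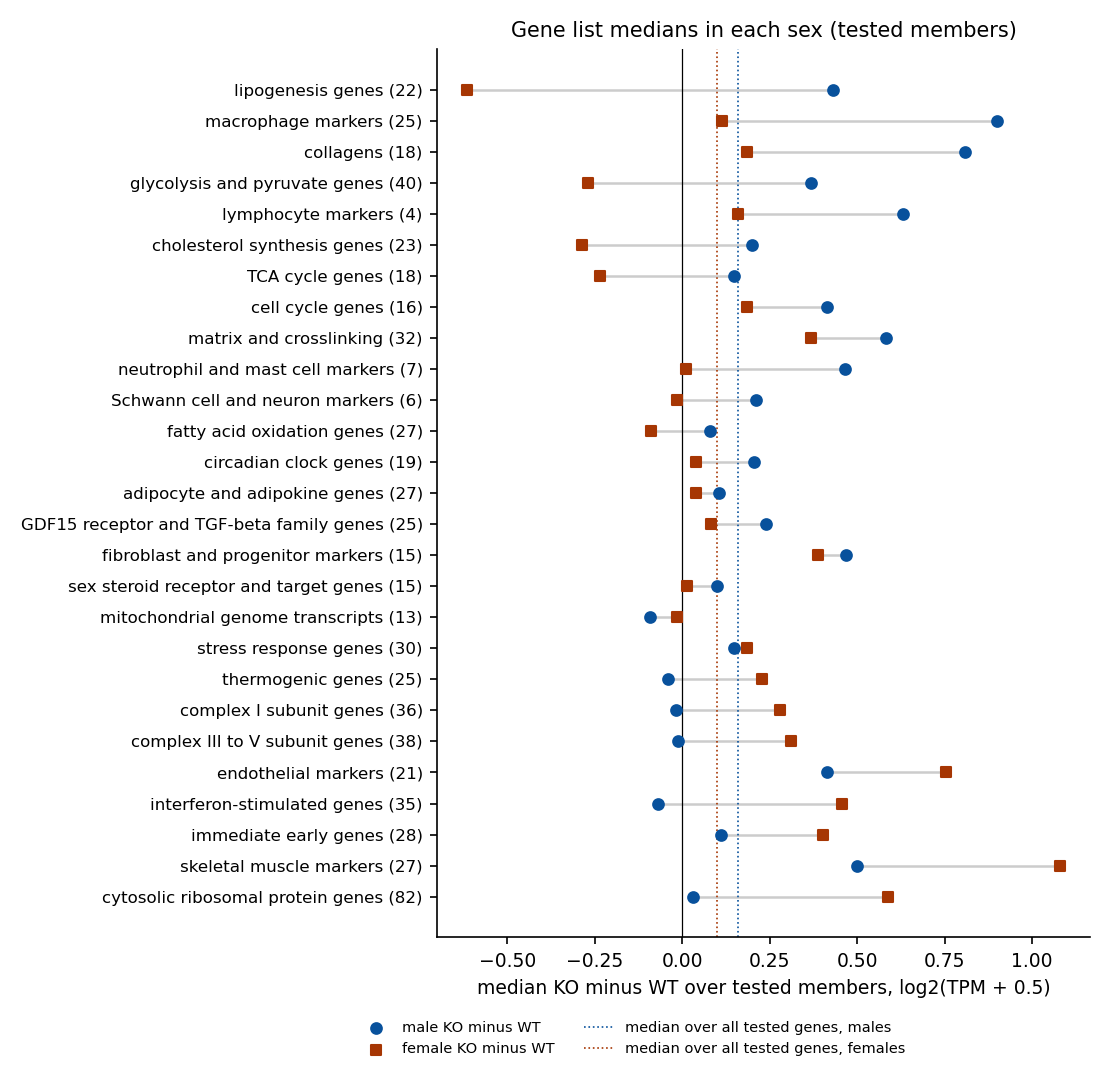
Median KO minus WT difference, in log2(TPM + 0.5), of each gene list in males (circles) and females (squares), ordered by the median interaction, with the number of tested members and dotted lines at the medians over all tested genes. Lipogenesis runs from -0.62 in females to 0.43 in males, and the ribosomal protein genes from 0.59 in females to 0.03 in males.

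**Figure D5:**
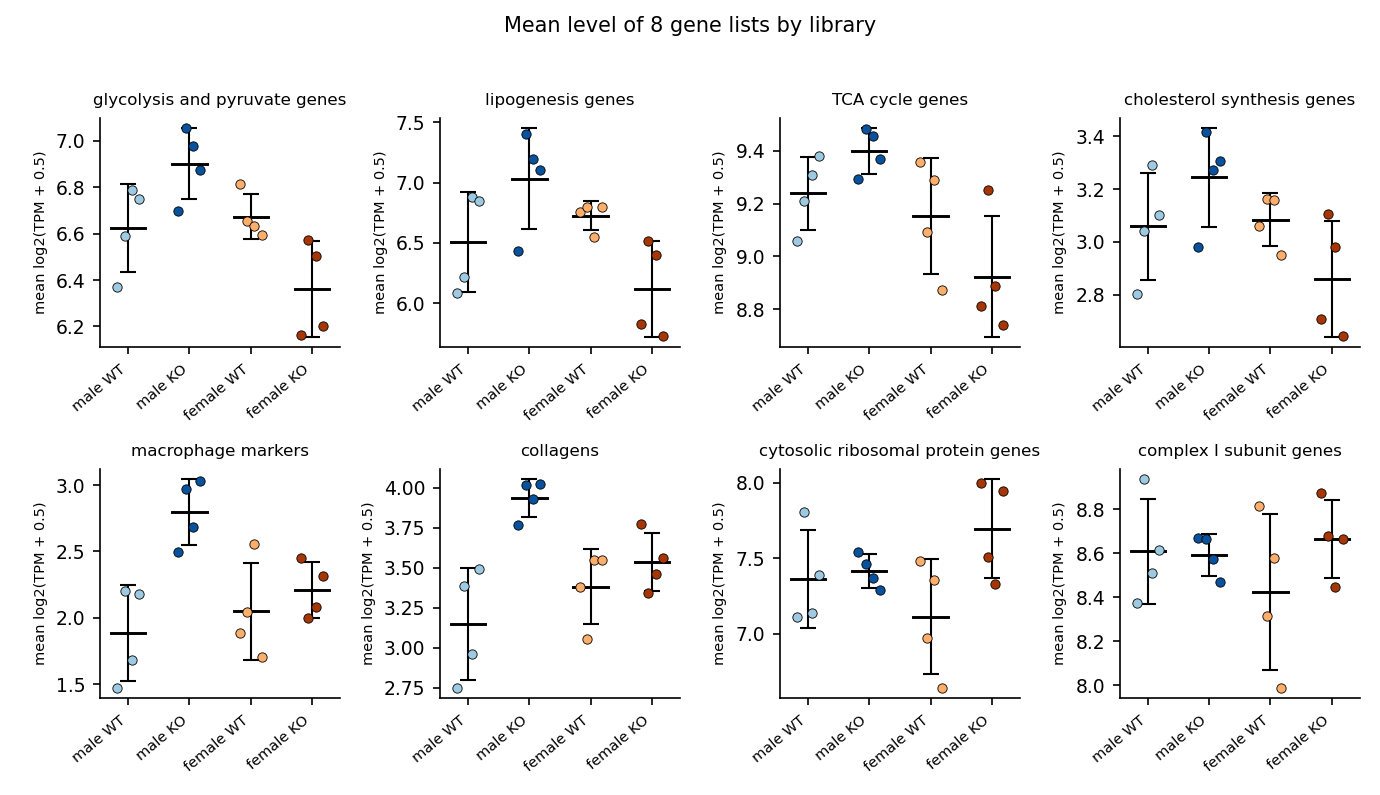
Mean log2(TPM + 0.5) of 8 gene lists in each library, with the group mean and SD (n = 4). The lipogenic level is at 5.72 to 6.51 in female KO and 6.55 to 6.80 in female WT, and the collagen level is at 3.77 to 4.02 in male KO and 2.75 to 3.49 in male WT.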

How the data were processed

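Brown adipose tissue mRNA was sequenced in 16 libraries, 4 per group. The authors quantified transcripts with kallisto v0.46.2, with GRCm39 named in the submitters' processing notes, and deposited TPM per transcript (annotation release not given in the sources used here). TPM keep no read counts, so the study's count model was not run and depth is unknown. Of 137438 transcripts, 135107 were matched to GENCODE M21 gene IDs and TPM were summed per gene symbol. Genes averaging 1 TPM or more were tested (12212) on log2(TPM + 0.5) with limma 3.58.1 in R 4.3.3, all groups in one fit, mean-dependent prior variance and Benjamini-Hochberg adjustment at 0.05. The scripts were tested on simulated data. Figures were drawn with matplotlib 3.10.9.

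The members and gene lists were chosen with earlier results of these data known. Named by rule were genes past the adjusted interaction threshold, opposed protein-coding genes, Gdf15, set members of each list and genes at the edge of the no-overlap rule. Chosen after their values were seen were the non-coding opposed genes, the 8 genes of smallest p in each direction, members of the glucose and lipogenesis lists at an unadjusted p under 0.05, and the 6 male calls. Alternatives were pseudocounts, TPM minima, scalings, weights, blocks and each library left out. Replicate numbers did not pair libraries. The limma p-values weigh each difference against the spread between libraries within groups, estimated over all 4 groups. The permutation p-values give the share of relabellings of the libraries with a difference at least as large.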

Additional observations from a re-analysis of the deposited data

Results flagged for a closer look

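In 25 of 532 groups of 4 values (4.7%), 1 library stood apart, its gap to the nearest library taking a larger part of the group's range than Dixon's critical value for 4 samples. Chance gives about 1 in 20 groups. The share of the range is given for each.

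Male KO 1 was lowest for Scd1 (0.965), Scd2 (0.83), Hsd17b4 (0.834), Uqcrc2 (0.873), Bhlhe40 (0.84) and the cell cycle list (0.971). Male KO 2 was highest for Mvd (0.957), and male KO 4 lowest for the thermogenic list (0.847). In male WT, replicate 4 was highest for Pcolce (0.884), replicate 1 lowest for the Schwann cell and neuron list (0.892) and replicate 2 highest for complexes III to V (0.873).

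Female WT 4 was highest for Col18a1 (0.868), Tgfbr1 (0.857) and the percent of TPM in unmatched transcripts (0.994), and lowest for Uqcrc2 (0.94) and Gm11837 (0.833). Female WT 2 was highest for Retnla (0.901) and the Schwann cell and neuron list (0.914), and lowest for Usp18 (0.92) and the circadian list (0.847). Female WT 1 was lowest for Kit (0.973) and female WT 3 for Slc25a1 (0.989). Female KO 2 was highest for Hadha (0.93) and Ndufs1 (0.934). Female KO 3 was the single female KO library with Gdf15 above 0 (1).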

How the results depend on the processing

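Interaction values of the named genes kept their direction in 3270 of 3272 alternatives, the exceptions being Dpt (-0.14 with library prefix as a factor) and Mbp (-0.077 with array weights). Female effects near 0 changed sign: Gpnmb was 0.017 with pseudocount 0.1, 0.054 with prefix, 0.047 with the muscle score and 0.28 with array weights without female WT 3, and -0.19 to 0.26 with a library left out (above 0 without female KO 2 or female WT 3). Col14a1 was 0.13 with prefix and -0.22 to 0.040 with a library left out (above 0 without the same libraries). Retnla was 0.13 with array weights and -0.15 to 0.20 with a library left out (above 0 without female KO 1 or female WT 2). The male effect of Sp3 was -0.011 on the median-of-ratios scale with array weights. The causes were not tested.

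Adjusted interaction calls (0) were 1821 with array weights, 1 without the variance trend, 1 on the median-of-ratios scale without female WT 4, and 0 to 3 with a library left out. Positive interactions at an unadjusted p under 0.05 (1429) were 3301 with array weights and 1012 to 1830 with a library left out. Negative ones (306) were 598 with no TPM minimum, 1130 with median-of-ratios, 549 without mitochondrial transcripts, 136 with prefix, 646 with array weights, 1094 with the length and GC trend removed, 1214 with median-of-ratios and weights, 918 with weights without female WT 3, 1021 with median-of-ratios without female WT 4, and 143 to 675 with a library left out.

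Male calls (38) were 7 with no TPM minimum, 15 at a TPM of 5, 59 with median-of-ratios, 68 without mitochondrial transcripts, 2 with prefix, 2758 with weights, 65 with the muscle score, 583 with median-of-ratios and weights, 2613 with weights without female WT 3, 1 with a fit per sex, and 2 to 130 with a library left out. Female calls (5) in the same order were 3, 2, 563, 308, 2, 2700, not moved with the muscle score, 859, 1, 0, and 1 to 520. They were also 9 with pseudocount 0.1, 11 without the trend, 239 with length and GC removed, 17 without unmatched transcripts and 126 with median-of-ratios without female WT 4. Replicate numbers did not pair libraries (6 of 24 same-number pairs had a correlation over 0.1, from -0.211 to 0.349), and the replicate block gave 10 male calls, 6 female calls and 0 interaction calls.

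Opposed genes (8 and 1) were 21 and 3 with no TPM minimum, 4 and 7 with median-of-ratios, and 8 to 70 and 1 to 6 with a library left out. The 8 were 20 without unmatched transcripts. The 1 was 0 at a TPM of 5, 3 without mitochondrial transcripts, 4 with length and GC removed and 9 with median-of-ratios without female WT 4. Gdf15 differed by -1.71 to -0.94 in males and -0.54 to -0.36 in females with a library left out. Chosen after seeing the data were the length and GC, muscle score, unmatched-transcript, and combined settings. No library prefix held all 4 groups, so prefix and group are partly confounded.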

Other observations

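Endothelial and interferon-stimulated genes had negative median interactions. All 21 endothelial markers had a negative interaction, with medians of 0.41 in males, 0.75 in females and -0.35 for the difference, and 20 were higher in KO in both sexes. Of 35 interferon-stimulated genes, 16 were lower in male KO and higher in female KO, beside 11.7% of all tested autosomal genes. The list had medians of -0.07 in males and 0.46 in females, and 0 passed an unadjusted p of 0.05 for the interaction. Their median interaction was -0.43, from -0.62 without male WT 1 to -0.13 without male WT 2, and -0.04 with library prefix as a factor. Median interactions were -0.24 for 25 thermogenic genes (-0.36 without female KO 3 to -0.057 without female KO 4) and 0.15 for 27 adipocyte genes (0.044 without female KO 3 to 0.23 without male WT 4). The thermogenic value was 0.004 with library prefix as a factor. At an unadjusted p under 0.05, 4 thermogenic genes had a positive and 3 a negative interaction, beside 11.7% and 2.51% of all tested genes.

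Among other lists, the median interaction was 0.30 for matrix and crosslinking genes, 0.44 for 4 lymphocyte markers, 0.27 for neutrophil and mast cell markers, 0.30 for cell cycle genes and 0.12 for GDF15 receptor and TGF-beta family genes, and kept its sign with any 1 library left out. The neutrophil and mast cell value was -0.14 with library prefix as a factor, and that of the GDF15 and TGF-beta list -0.083 with the length and GC trend removed. Schwann cell and neuron markers had 0.21, from 0.027 without female WT 2 to 0.42 without female WT 3, and -0.11 with array weights.

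The sign of other medians turned on 1 library. Immediate early genes had -0.49, from -0.82 without male WT 1 to 0.26 without male WT 4. Fibroblast markers had 0.06, from -0.057 without female KO 2 to 0.19 without male WT 2, and circadian clock genes 0.15, from -0.051 without male KO 3 to 0.26 without female KO 2. Stress response genes had -0.04, from -0.096 without male WT 1 to 0.053 without female WT 4, and sex steroid receptor and target genes 0.04, from -0.053 without male WT 3 to 0.098 without female KO 4. Skeletal muscle markers had -0.51, from -1.69 without female WT 2 to 0.82 without female KO 3, and mitochondrial genome transcripts -0.004, from -0.197 without female WT 2 to 0.133 without female WT 4.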
